A study of Mus musculus with 59 samples.

Results

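The Cyp2 and Cyp3 families of cytochrome P450 genes were examined for binding of the repressor BCL6 and of the lipid-sensing receptors PPARα and PPARδ in mouse liver. All protein-coding RefSeq genes whose symbol is Cyp2 or Cyp3 followed by a letter were taken, which gave 57 genes in 15 subfamilies among 21774 protein-coding genes. Chromatin immunoprecipitation followed by sequencing (ChIP-seq) was performed on livers of wild-type C57BL/6 male mice that were either fed *ad libitum* or fasted overnight, with antibodies against BCL6, PPARα or PPARδ. BCL6 was also mapped in fed *Bcl6* fl/fl livers on the C57BL/6 strain, in which the floxed alleles are present without Cre, and which are called floxed livers here. The result is 7 peak lists, each made from 3 biological replicates pooled before deposit, or 21 of the 59 samples of the series. The other samples were not used here, and the ages of the animals are not given in the labels.

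Cytochrome P450 enzymes of families 2 and 3 are membrane-bound heme oxidases of the endoplasmic reticulum. They hydroxylate drugs, toxins, steroids, bile acids and fatty acids, take electrons from the reductase encoded by *Por*, and many are strongly expressed in liver. Most arose by tandem duplication, and in mouse they lie in clusters of near-identical neighbors. Many are induced through the nuclear receptors CAR and PXR, and several differ between the sexes through growth hormone and STAT5, whose DNA element resembles that of BCL6. BCL6 is a zinc finger repressor that recruits corepressor complexes. PPARα is the main receptor of the fasting response to fatty acids in liver, and PPARδ is a related receptor that binds the same element, a direct repeat of AGGTCA spaced by 1 base (DR1), which other liver receptors such as HNF4α also bind.

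The lists give the position of each peak in mm10 and no height, count or p-value. A peak was assigned to the gene with the nearest protein-coding transcription start site (TSS) within 100 kb, and peaks of BCL6, PPARα and PPARδ in wild-type livers with centers within 200 bp were joined into 1 site. By this measure 179 of 32700 sites belonged to Cyp2 and Cyp3 genes, and 48 of the 57 genes had at least 1. Because replicates were pooled, no test over animals could be made, and the intervals below are 95% Wilson intervals that cover counting error only. Sites are not replicates, and in duplicated clusters they share sequence. The depth behind a call is unknown, so a site called in 1 feeding state is not shown to be unbound in the other.

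Sites within 250 bp upstream of the TSS recurred at 22 members, and some of them are shown first. The promoters shown were chosen among those with a DR1 match, which 6 of the 23 member TSSs with such a site held. For 3 promoters with a called site, the 200 bases before the TSS are given from the RefSeq assembly of mm10, 5′ to 3′ on the strand of the gene, with the DR1 match (at most 2 mismatches to AGGTCANAGGTCA) in capitals. *Cyp2c29*, an epoxygenase of arachidonic acid that is inducible through CAR, was called there in 5 of the 6 wild-type lists. *Cyp3a25*, a relative of the drug hydroxylase *Cyp3a11*, was called in 4, and *Cyp2d10* in 2.
Cyp2c29 promoter, chr19:39286885-39287084, plus strand: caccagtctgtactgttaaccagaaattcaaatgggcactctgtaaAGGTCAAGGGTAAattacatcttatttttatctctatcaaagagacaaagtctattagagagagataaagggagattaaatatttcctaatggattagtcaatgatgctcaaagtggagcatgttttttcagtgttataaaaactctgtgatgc
Cyp3a25 promoter, chr5:146009619-146009818, minus strand: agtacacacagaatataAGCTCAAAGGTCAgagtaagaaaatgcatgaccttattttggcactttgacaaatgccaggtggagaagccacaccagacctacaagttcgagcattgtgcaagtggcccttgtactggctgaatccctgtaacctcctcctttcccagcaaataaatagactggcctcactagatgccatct
Cyp2d10 promoter, chr15:82407195-82407394, minus strand: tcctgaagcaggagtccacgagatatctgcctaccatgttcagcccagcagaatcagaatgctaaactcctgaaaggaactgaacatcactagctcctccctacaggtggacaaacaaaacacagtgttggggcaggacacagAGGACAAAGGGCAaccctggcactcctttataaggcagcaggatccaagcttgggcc

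Of the 8 sites called in all 6 wild-type lists, 4 hold a DR1 match, and the following 3 of them are given, with the match again in capitals. The fourth lies upstream of *Cyp2u1*. The first lies 2052 bp upstream of *Cyp2d40*, the next in intron 3 of *Cyp2f2*, which oxidizes naphthalene, and the last 1111 bp upstream of *Cyp2j5*, a fatty acid epoxygenase. Their strand is that of the genome assembly. The match lies near the end of the sequence shown for *Cyp2d40* and *Cyp2f2*, away from the site center, and near the middle for *Cyp2j5*. In windows of 200 bp at site centers, a DR1 match was found at 15.6% of member sites and 13.5% of sites at all genes. In windows of 50 bp the shares were 4.47% and 4.38%. Whether the bases in capitals are the ones bound was not tested.
Cyp2d40 site, chr15:82766104-82766243, plus strand: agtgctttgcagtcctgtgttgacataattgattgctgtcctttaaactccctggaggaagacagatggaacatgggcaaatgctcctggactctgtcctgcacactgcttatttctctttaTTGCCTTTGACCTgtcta
Cyp2f2 site, chr7:27124434-27124575, plus strand: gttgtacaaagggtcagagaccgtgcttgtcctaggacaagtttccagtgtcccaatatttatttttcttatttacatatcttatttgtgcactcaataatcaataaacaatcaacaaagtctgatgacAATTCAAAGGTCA
Cyp2j5 site, chr4:96665160-96665299, plus strand: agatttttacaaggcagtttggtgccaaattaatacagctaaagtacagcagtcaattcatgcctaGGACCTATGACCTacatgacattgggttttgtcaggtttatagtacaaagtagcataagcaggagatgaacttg

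A site 11570 bp upstream of *Cyp2d10* is given as one called for BCL6 without either PPAR, in fed livers only. The fed floxed livers had no BCL6 peak there. It holds the BCL6 element, defined as TTCCTAGAA with at most 1 mismatch on either strand, which is in capitals. The element lies at the start of the sequence shown, away from the site center.
Cyp2d10 upstream site, chr15:82418693-82418813, plus strand: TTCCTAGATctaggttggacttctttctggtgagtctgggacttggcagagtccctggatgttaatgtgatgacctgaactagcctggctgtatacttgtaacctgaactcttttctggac

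Binding was frequent along the families as a whole. At least 1 site was assigned to 84.2% of the members (interval 72.6% to 91.5%), compared to 48.7% of all protein-coding genes, many of which are not active in liver. Per length of DNA nearest to their TSSs, the members had 39.4 sites per Mb over 4.55 Mb, against 21.0 sites per Mb over 1556 Mb for all genes. This density was not particular to them. The 20 Cyp4 genes, which hydroxylate fatty acids, had 41.8 sites per Mb, all 41 Cyp genes outside families 2 and 3 had 42.6, and 65 phase II genes for glucuronidation, sulfation and glutathione conjugation had 52.4.

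BCL6 was the factor with the greatest density at the members relative to all genes. In fed wild-type livers, 122 BCL6 peaks fell at 44 of the 57 members, where 25.9% of all genes had a peak, and their density of 26.8 peaks per Mb was 3.33 times that of all genes. In fasted livers there were 81 BCL6 peaks at 37 members, with 18.9% of all genes called, and a ratio of 3.47. The floxed livers gave 126 BCL6 peaks at 46 members, with 28.6% of all genes called, and a ratio of 2.96. A high density of BCL6 was not particular to the members. Phase II genes had 30.3 BCL6 peaks per Mb in fed livers and 19.25 in fasted livers, above the 26.8 and 17.8 of the members. Other Cyp genes had 22.7 and 15.1. PPARα had 115 peaks at 40 members in fed livers, where 32% of all genes had a peak, and 137 peaks at 48 members in fasted livers, where 43.5% of all genes did. The corresponding density ratios were 2.18 and 1.85. PPARδ had 40 peaks at 23 members when fed and 13 peaks at 12 members when fasted, against 17% and 7.7% of all genes, with ratios of 2.18 and 2.17.

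The assignment sets these counts. When non-coding genes and pseudogenes, which are common in the P450 clusters, could also claim a peak, the members kept 77 BCL6 peaks in fed livers, 53 in fasted livers and 80 in floxed livers, and 73 and 86 PPARα peaks in fed and fasted livers. With a reach of 20 kb, 80 BCL6 peaks remained in fed livers.

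Members differed widely in the number of sites. *Cyp2d40* had the most, with 10. *Cyp2b10*, the classical target of CAR and phenobarbital, and *Cyp3a11*, the major PXR-inducible steroid and drug hydroxylase, had 9 each. *Cyp2a22* and *Cyp2e1*, which oxidizes ethanol and ketones, had 7 each, so that 5 genes held 42 of the 179 sites. *Cyp2c39*, *Cyp2c70* and *Cyp3a25* had 6 each, and *Cyp2a12*, *Cyp2c29*, *Cyp2d9*, *Cyp2f2* and *Cyp3a16* had 5 each. No site was assigned to 9 members: *Cyp2ab1*, *Cyp2b23*, *Cyp2c40*, *Cyp2j8*, *Cyp2j11*, *Cyp2j12*, *Cyp2j13*, *Cyp2t4* and *Cyp3a41a*. Of these, *Cyp2c40* and *Cyp3a41a* each had 1 BCL6 peak in the floxed livers.

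**Figure D1:**
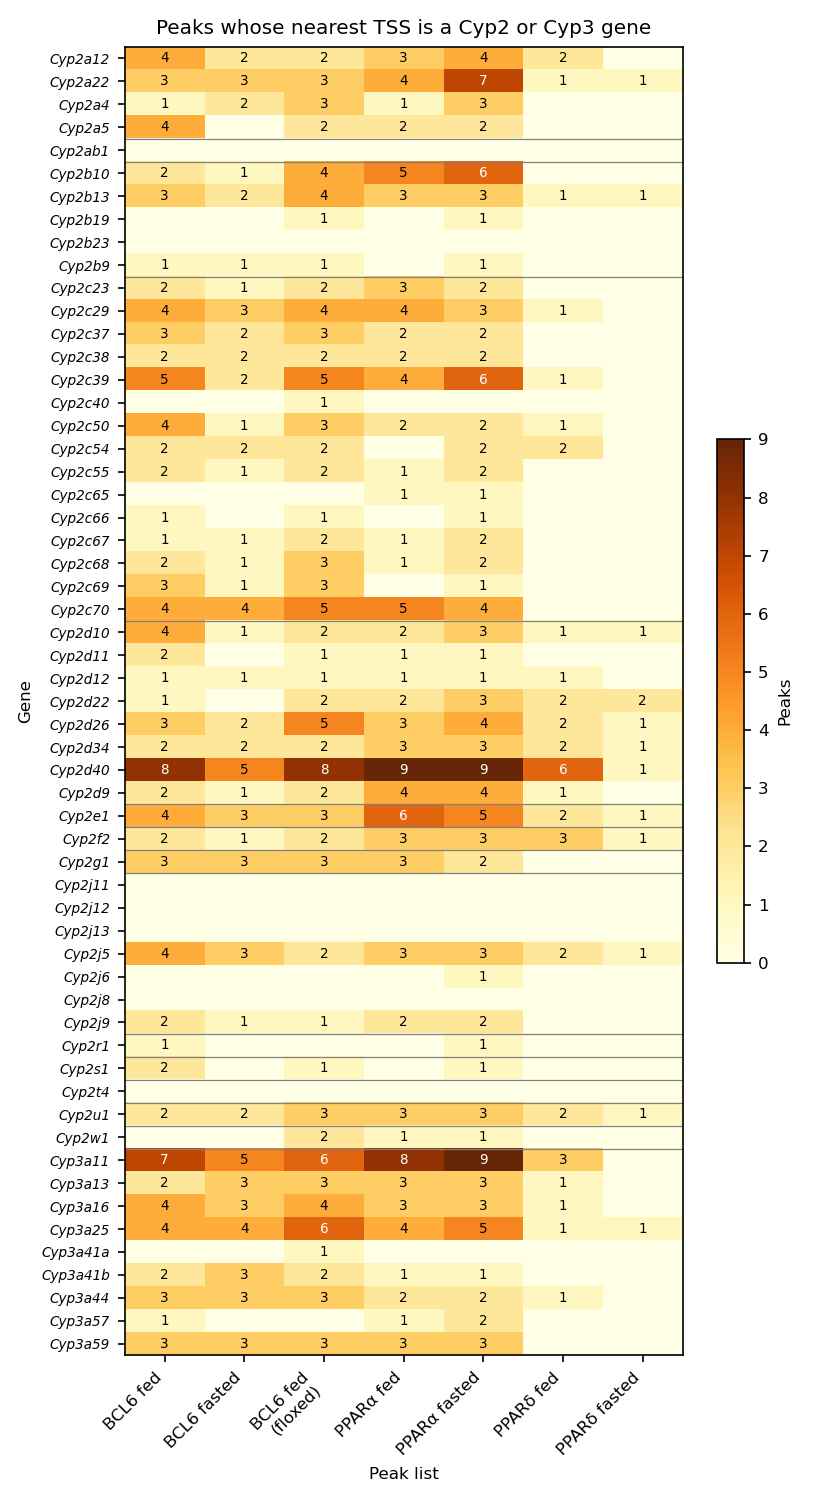
Number of peaks in each of the 7 lists (columns) whose nearest protein-coding TSS within 100 kb belongs to each of the 57 Cyp2 and Cyp3 genes (rows, by symbol, with lines between subfamilies), where an empty cell is 0. *Cyp2d40* and *Cyp3a11* have the most peaks, up to 9 in a list, and *Cyp2b10* has 5 and 6 PPARα peaks but 2 and 1 BCL6 peaks in fed and fasted wild-type livers.

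The same total could hide different mixtures of factors. *Cyp2d40* had 8 BCL6 peaks, 9 PPARα peaks and 6 PPARδ peaks in fed livers, and 5, 9 and 1 in fasted livers. Many of its sites were intergenic and far downstream of its TSS. Those at 15739, 16419, 55964, 56621 and 68760 bp were called for all 3 factors, and those at 54211 and 69376 bp were not. *Cyp3a11* had 7 BCL6, 8 PPARα and 3 PPARδ peaks when fed and 5, 9 and 0 when fasted, and 6 of its 9 sites lay 17618 to 33278 bp upstream of its TSS. *Cyp2b10* stood apart, since 7 of its 9 sites were called for PPARα alone. It had 5 PPARα peaks and 2 BCL6 peaks in fed livers, 6 and 1 in fasted livers, and no PPARδ peak in either. Its PPARα sites lay 2306, 4298, 7959, 9415, 13197 and 33699 bp upstream and in introns 1 and 6, and its only site called for BCL6 without PPARα lay in intron 8. In the floxed livers, however, *Cyp2b10* had 4 BCL6 peaks, and 3 of its PPARα sites without a wild-type BCL6 call had one there, those at 2306, 4298 and 7959 bp. The absence of BCL6 from these 3 sites therefore holds for the wild-type lists and not for the floxed list.

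*Cyp2e1* and *Cyp2a22* were covered by all 3 factors. *Cyp2e1* had 4 BCL6, 6 PPARα and 2 PPARδ peaks in fed livers and 3, 5 and 1 in fasted livers, within territory of only 41.8 kb. Its site 7082 bp upstream was called in all 6 lists. *Cyp2a22* had 3 BCL6 and 4 PPARα peaks when fed and 3 and 7 when fasted, the largest gain of PPARα peaks with fasting among the members. Its site 84 bp upstream of the TSS was likewise called in all 6 lists.

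Subfamilies differed in density and in PPARδ. *Cyp2e1* alone gave 168 sites per Mb, followed by *Cyp2u1* with 82.4, *Cyp2f2* with 80.2, *Cyp2g1* with 76.7 and the 8 Cyp2d genes with 75.9. The 15 Cyp2c genes on chromosome 19, which make up the largest subfamily, had 34.6 sites per Mb, and the 9 Cyp3a genes on chromosome 5 had 41.1. The 7 Cyp2j genes on chromosome 4 had only 11.5, with a site at *Cyp2j5*, *Cyp2j6* and *Cyp2j9*, and the Cyp2ab and Cyp2t subfamilies, with 1 gene each, had none. *Cyp2j5* led its subfamily with 4 sites. Among subfamilies of 1 gene, *Cyp2s1* had 3 sites, *Cyp2r1* had 2 and *Cyp2w1* had 1.

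Cyp2d genes on chromosome 15 held the most PPARδ peaks of any subfamily. Of its peaks at members, 15 of 40 in fed livers and 6 of 13 in fasted livers lay at Cyp2d genes, at densities of 34.5 and 13.8 per Mb. Densities were higher at the subfamilies of 1 gene *Cyp2u1* (54.9 and 27.5 per Mb), *Cyp2f2* (48.1 and 16.1) and *Cyp2e1* (47.9 and 23.9), where they rest on 2 or 3 fed peaks and 1 fasted peak each. Cyp2c genes, with a larger territory (1.30 Mb against 0.435 Mb), had 5 PPARδ peaks when fed and 0 when fasted, and Cyp3a genes had 7 and 1. All 3 factors met at 14 of 33 Cyp2d sites (42.4%, interval 27.2% to 59.2%), 5 of 45 Cyp2c sites (11.1%, interval 4.84% to 23.5%) and 7 of 35 Cyp3a sites (interval 10.0% to 35.9%). In all, 23 members had a PPARδ peak. They were *Cyp2a12*, *Cyp2a22*, *Cyp2b13*, *Cyp2c29*, *Cyp2c39*, *Cyp2c50*, *Cyp2c54*, *Cyp2e1*, *Cyp2f2*, *Cyp2j5*, *Cyp2u1*, *Cyp3a11*, *Cyp3a13*, *Cyp3a16*, *Cyp3a25*, *Cyp3a44* and every Cyp2d gene except *Cyp2d11*. Only *Cyp2d22* had 2 PPARδ peaks in fasted livers, 611 and 1640 bp downstream of its TSS in intron 1.

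Across the members, BCL6 and PPARα were called together more often than apart. Of the 179 sites, 66 were called for BCL6 and PPARα, 37 for all 3 factors, 45 for PPARα alone, 26 for BCL6 alone, 3 for PPARα and PPARδ, 2 for PPARδ alone and none for BCL6 and PPARδ without PPARα. Of the 151 PPARα sites, 103 had BCL6 (68.2%, interval 60.4% to 75.1%), compared to 38.7% of PPARα sites at all genes. A high share was not particular to the members. Over 1000 bp from a TSS, BCL6 was at 81 of 122 PPARα sites of members, 78 of 127 of phase II genes and 48 of 78 of other Cyp genes. Within 1000 bp it was at 22 of 29, 18 of 35 and 9 of 19. In the other direction members and all genes differed little. Of the 129 BCL6 sites at members, 79.8% had PPARα (interval 72.1% to 85.9%), and 78.3% did at all genes. PPARδ sites at members had BCL6 in 37 of 42 cases (88.1%), against 56.8% at all genes. In fed livers, 88 of the 122 BCL6 peaks at members had a PPARα peak within 200 bp (72.1%, and 70.8% at all genes), at a median distance of 26.5 bp between centers. A BCL6 site and a PPARα site were each present at 44 members.

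**Figure D2:**
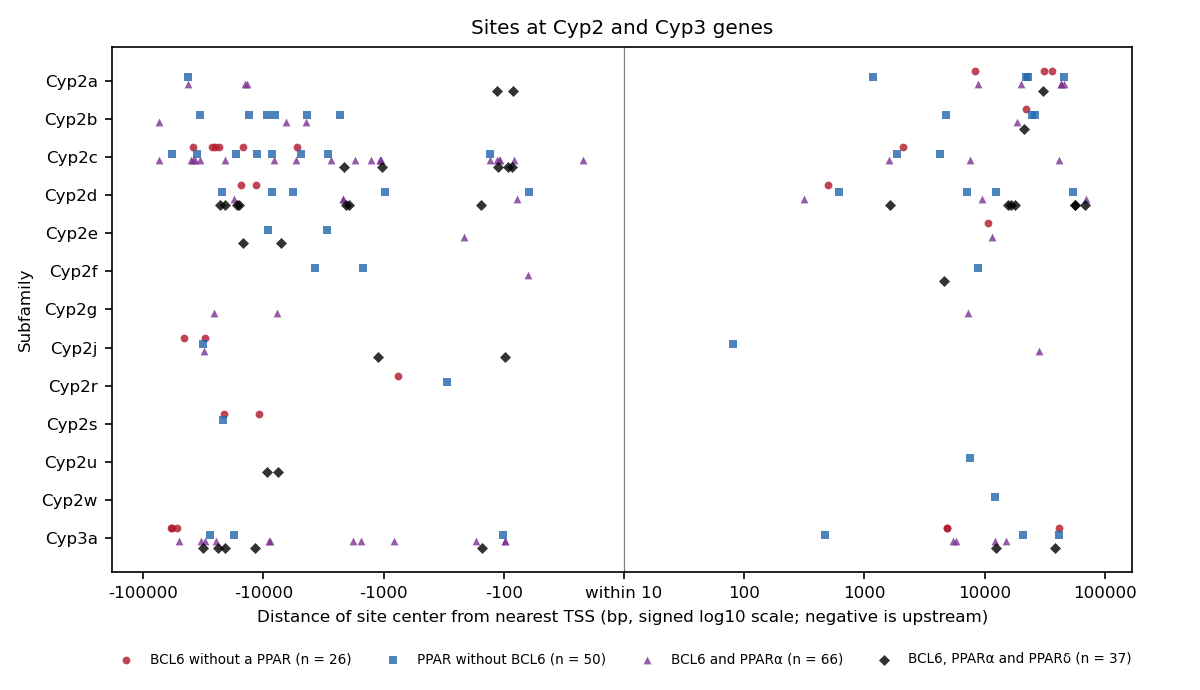
Distance of the center of each of the 179 sites from its nearest TSS (horizontal axis, bp on a signed log10 scale, negative upstream) by subfamily (vertical axis), with color and shape for the factors called. Sites gather at about 100 bp upstream in Cyp2a, Cyp2c, Cyp2d and Cyp3a, and sites of all 3 factors (black) are most numerous in Cyp2d, where they are 14 of 33.

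The location of these sites differed from that of sites at large. Promoters, taken as 1000 bp upstream to 100 bp downstream of a TSS, held 28 sites (15.6%, interval 11.1% to 21.7%), close to the 14.1% at all genes. Sites within genes made up 21.8% of member sites, compared to 53.4% at all genes, and intergenic sites made up 62.6%, compared to 32.5%. Upstream sites numbered 118 and downstream sites 61. The median distance to the TSS was 9415 bp, against 12571 bp at all genes. Gene length was not taken into account. A neighboring gene contained 6 of the sites, among them 3 in introns of *Pdlim1* that were assigned to *Cyp2c70*.

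The promoter sites were uniform in place. Within 250 bp upstream of a TSS, a reach chosen after the positions were seen, 23 sites lay at 22 members, with centers from 22 to 214 bp upstream and a median of 102 bp. They were found at 9 Cyp2c genes, 5 Cyp3a genes, 3 Cyp2d genes, 2 Cyp2a genes, *Cyp2e1*, *Cyp2f2* and *Cyp2j5*. In the Cyp2c cluster the centers lay 92 bp upstream of *Cyp2c29*, 110 bp of *Cyp2c37*, 131 bp of *Cyp2c38*, 85 bp of *Cyp2c50*, 112 bp of *Cyp2c54*, 130 bp of *Cyp2c67*, 22 bp of *Cyp2c68* and 82 bp of *Cyp2c70*. *Cyp2c39*, for which RefSeq lists an additional TSS far upstream, had a site at each, 108 and 114 bp upstream. In Cyp3a they lay 98 bp upstream of *Cyp3a25* and *Cyp3a59*, 102 bp of *Cyp3a11*, 153 bp of *Cyp3a13* and 171 bp of *Cyp3a57*. In the other subfamilies, the distances were 62 bp for *Cyp2d9*, 78 bp for *Cyp2d10*, 155 bp for *Cyp2d26*, 84 bp for *Cyp2a22*, 114 bp for *Cyp2a12*, 214 bp for *Cyp2e1*, 63 bp for *Cyp2f2* and 97 bp for *Cyp2j5*. For all genes, sites in the same reach had a median of 84 bp, so the place itself was common.

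These promoter sites differed in which factors were called. PPARα was called at all 23 and BCL6 at 20 of them (87.0%, interval 67.9% to 95.5%), the exceptions being *Cyp2c67*, *Cyp2d9* and *Cyp3a11*. The floxed livers had a BCL6 peak at the sites of *Cyp2c67* and *Cyp3a11* but not at that of *Cyp2d9*. Of the 20 sites with a wild-type BCL6 call, those of *Cyp2d10* and *Cyp3a57* had no BCL6 peak in the floxed livers. At all genes, PPARα was called at 96.8% of the 2490 sites in this reach and BCL6 at only 14.2% (interval 12.9% to 15.6%). PPARδ was called at 8 of the 23 sites, against 8.68% at all genes. Within 1000 bp on either side of a TSS, BCL6 was called at 24 of 32 member sites and at 16.1% of sites at all genes. BCL6 at the proximal sites of other gene sets lay in between, at 4 of 10 sites of other Cyp genes, which include 2 of 6 at Cyp4 genes, and at 17 of 27 phase II sites (63.0%, interval 44.2% to 78.5%). Farther than 1000 bp from a TSS the gap was smaller, with BCL6 at 71.4% of 147 member sites (interval 63.7% to 78.1%) and 49.3% at all genes. There the share was 64.9% at phase II genes (interval 56.9% to 72.1%) and 63.2% at other Cyp genes (interval 52.7% to 72.6%).

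**Figure D3:**
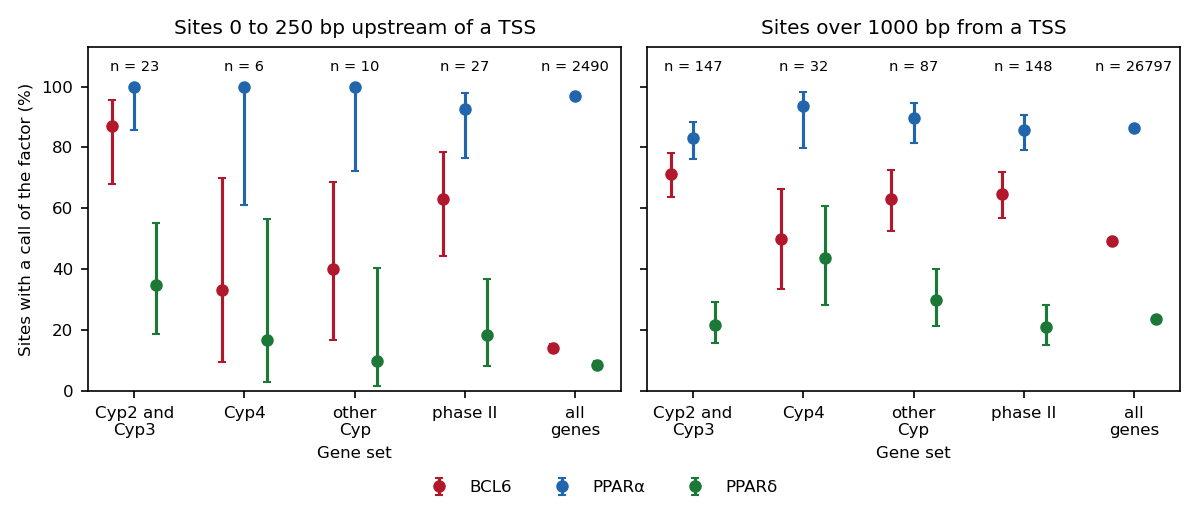
Percent of sites called for BCL6, PPARα and PPARδ (points, with 95% Wilson intervals for counting error) at 5 gene sets, for sites 0 to 250 bp upstream of a TSS (left) and over 1000 bp away (right), with the number of sites above. BCL6 was called at 87.0% of the 23 upstream sites of Cyp2 and Cyp3 genes and at 14.2% of those of all genes, and its value for phase II genes, 63.0%, lies between.

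Base composition moved with this difference. The 200 bases before the TSS held a median of 1 CpG at the member promoters with a site and 14 at all promoters with one, and their G and C content was 44.0% and 62.0%. Among promoters with at most 2 CpG, BCL6 was called at 18 of 21 member promoters (85.7%, interval 65.4% to 95.02%) and at 169 of 271 promoters of all genes (62.4%, interval 56.5% to 67.9%). Among all promoters with 3 or more CpG it was called at 8.30%. The difference between members and all genes was thus much smaller among promoters poor in CpG, where the intervals overlap.

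A further site lay behind some of these promoters. Of the 22 members with a proximal site, 13 also had a site 1000 to 3000 bp upstream (59.1%, interval 38.7% to 76.7%), compared to 11.6% of the 2443 genes with a proximal site and 5 of 26 phase II genes, with limits chosen after the positions were seen. Of the 13, 6 were in Cyp2c, and 11 of these 13 were called for BCL6 and PPARα. The nearest such sites were 1024 bp upstream for *Cyp2c39*, 1053 bp for *Cyp2c38*, 1079 bp for *Cyp2c50*, 1111 bp for *Cyp2j5* and 1267 bp for *Cyp2c29*. In Cyp3a, they lay 1546 bp upstream of *Cyp3a11* and 1806 bp upstream of *Cyp3a25*. *Cyp2c54* had the same arrangement at 2127 bp and *Cyp2c37* at 2748 bp. Neighboring Cyp2c genes are duplicates, so their repeated pattern is not a set of independent observations.

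Other members had sites within 1000 bp that were not in the proximal group. *Cyp2r1*, the vitamin D 25-hydroxylase, had a fasted PPARα site 295 bp upstream and a fed BCL6 site 753 bp upstream. *Cyp2j6* had a fasted PPARα site 81 bp downstream. *Cyp2d40* had a fed PPARα site 983 bp upstream and a BCL6 and PPARα site 312 bp downstream, *Cyp2d11* a fed BCL6 site 500 bp downstream and *Cyp2d22* the PPARα and PPARδ site at 611 bp named above. *Cyp3a13* had an additional site of BCL6 and PPARα 817 bp upstream, and *Cyp3a25* a fasted PPARδ site 472 bp downstream.

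Feeding state was examined next, as the design set fasted against fed livers. The members had fewer BCL6 peaks after fasting, 81 against 122, so their number fell by 33.6%, and over all genes it fell by 36.3%. Fewer BCL6 peaks were called at 28 members, more at 3 and the same number at 13. Of the 129 BCL6 sites, 48 were called in fed livers only (37.2%, interval 29.4% to 45.8%), where 43.7% of BCL6 sites at all genes were. In fasted livers only, 7 were called (5.43%, interval 2.65% to 10.8%), against 11.7% at all genes. The remaining 74 (57.4%, interval 48.7% to 65.6%) were called in both states, compared to 44.6% at all genes. At 7 members every BCL6 peak of wild-type livers was a fed one, and at none was every one a fasted one.

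PPARα showed a smaller increase at the members than over all genes. Its peaks numbered 137 after fasting and 115 before, or 19.1% more, whereas over all genes there were 40.1% more. The smaller increase was not particular to the members. From fed to fasted livers, PPARα peaks per Mb went from 25.28 to 30.12 at members and from 34.83 to 38.79 at phase II genes. They went from 29.03 to 32.22 at other Cyp genes, which include Cyp4 genes, with 27.22 and 32.08. More PPARα peaks were called at 22 members, fewer at 5 and the same number at 21. Of the 151 PPARα sites, 36 were called in fasted livers only (23.8%, interval 17.8% to 31.2%), against 37.1% at all genes, and 14 in fed livers only (9.27%, interval 5.603% to 14.96%), against 12% at all genes. PPARα was called in both states at 66.9% of its member sites and 50.9% of its sites at all genes. At phase II genes, 24.1% of PPARα sites were called in fasted livers only and 60.5% in both states. At promoters, within 250 bp upstream, PPARα was called in fed livers at 19 of the 23 member sites (82.6%) and 38.8% of those at all genes, and in fasted livers at 21 of the 23 (91.3%) and 92.7%. This also moved with base composition, since promoters of all genes with at most 2 CpG were called for PPARα in fed livers at 70.5%.

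PPARδ was the most restricted factor. The number of its peaks fell by 67.5% at the members and by 67.4% over all genes. Of its 42 sites at members, 29 were called in fed livers only (69.0%, interval 54.0% to 80.9%), against 70.7% at all genes, and 2 in fasted livers only (4.76%, interval 1.32% to 15.8%), against 9.96%. The shares of PPARδ sites by state were therefore near those of all genes.

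**Figure D4:**
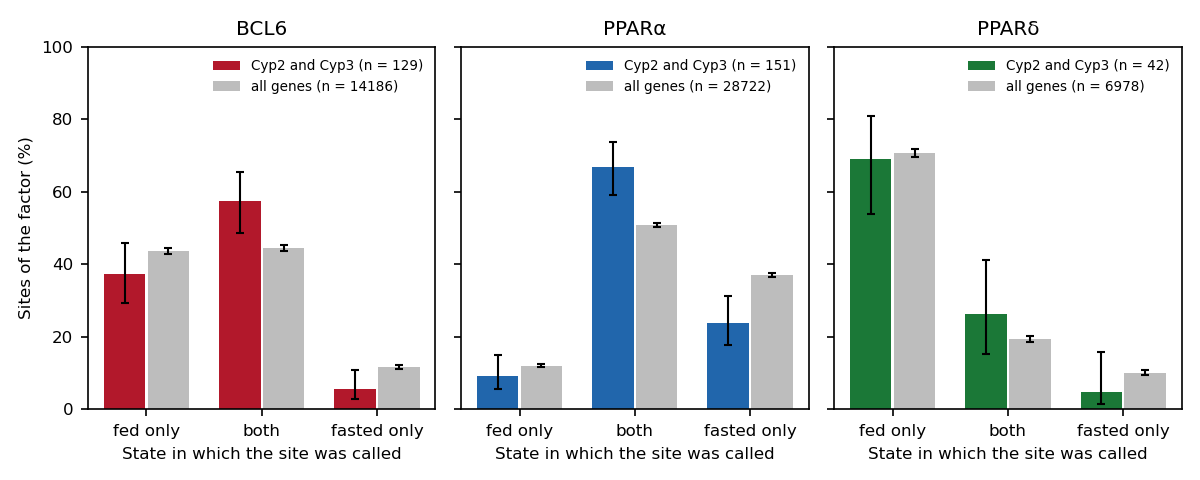
Percent of the sites of each factor called when fed only, in both states or when fasted only, for Cyp2 and Cyp3 genes (colored bars) and all protein-coding genes (grey bars), with 95% Wilson intervals for counting error. At the members, 57.4% of BCL6 sites and 66.9% of PPARα sites were called in both states, above 44.6% and 50.9% at all genes, and the PPARδ bars lie close together.

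Most shared sites kept both calls. Of the 103 sites of BCL6 and PPARα, 62 were called for both factors in both states (60.2%), compared to 44.7% at all genes. The pattern of BCL6 in fed livers only with PPARα in fasted livers only was found at 6 sites (5.83%), against 5.69% at all genes. Apart from the site 78 bp upstream of *Cyp2d10*, they lay in Cyp2c, at *Cyp2c39*, *Cyp2c50*, *Cyp2c55*, *Cyp2c66* and *Cyp2c68*, the closest being 85 bp upstream of *Cyp2c50*. In all, 8 sites were called in every wild-type list (4.47%, compared to 1.76% at all genes). Besides those of *Cyp2d40*, *Cyp2f2*, *Cyp2j5*, *Cyp2e1* and *Cyp2a22*, they lay 1947 bp upstream of *Cyp2d26*, 7607 bp upstream of *Cyp2u1*, a fatty acid hydroxylase, and in intron 4 of *Cyp2b13*. Calls in only 1 list made up 29.1% of member sites and 42.9% of sites at all genes.

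Feeding state also differed among subfamilies. In Cyp3a, 21 of 29 BCL6 sites were called in both states (72.4%, interval 54.3% to 85.3%) and 25 of 28 PPARα sites were (89.3%, interval 72.8% to 96.3%). In Cyp2d, 12 of 24 BCL6 sites were fed-only calls and 11 were called in both states. Cyp2c had 14 of 35 BCL6 sites in fed livers only and none in fasted livers only, and 12 of its 38 PPARα sites were called in fasted livers only. *Cyp2a5*, the coumarin hydroxylase, had 4 BCL6 peaks when fed and none when fasted, the most of any member without a fasted BCL6 peak. In the fed floxed livers, however, only its site 43484 bp downstream had a BCL6 peak. Those 8384, 36092 and 45563 bp downstream had none. *Cyp2b19* and *Cyp2j6* were the only 2 members called in fasted livers alone, each with 1 PPARα site, 24824 bp downstream of the TSS of *Cyp2b19* and 81 bp downstream of that of *Cyp2j6*.

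BCL6 at these genes was largely found again in the floxed livers, which are an independent set of animals with the same antibody target and feeding state. Of the 122 BCL6 peaks of fed wild-type livers at members, 99 had a floxed peak within 200 bp (81.1%, interval 73.3% to 87.1%), compared to 70.2% at all genes. In reverse, 99 of 126 floxed peaks at members had a wild-type peak (78.6%, interval 70.6% to 84.8%), compared to 60.4%. The share depended on the state in wild-type livers. Sites called for BCL6 in both states were found in floxed livers at 72 of 74 (97.3%, interval 90.7% to 99.3%), those called in fed livers only at 27 of 48 (56.3%, interval 42.3% to 69.3%) and those called in fasted livers only at 3 of 7. At all genes these shares were 88.3%, 51.7% and 49.9%. A BCL6 call in fed livers only was thus found again less often in other fed livers than a call in both states.

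Groups of members with a known role were described by their counts, to be read against the 84.2% of all members with a site and their 39.4 sites per Mb. Of 10 genes predominant in female liver, 8 had a site, with 22 BCL6 peaks in fed livers and 17 in fasted livers, 14 and 20 PPARα peaks, and 26.7 sites per Mb. This group holds most of the members with the least unique sequence, by the measure given below. In the group these are *Cyp3a41b* (53.6%), *Cyp3a41a* (54.8%), *Cyp2b13* (64.1%), *Cyp2a4* (68.5%) and *Cyp2b9* (72.9%), against a median of 91.96% over all members. *Cyp2a5*, at 65.5%, is also low and is not in the group. The highest in the group was *Cyp3a16* (91.4%). Whether this lowered the density was not tested. *Cyp2c39*, with 5 fed BCL6 peaks, and *Cyp3a16*, with 4, had the most among these female-predominant genes, followed by *Cyp2b13*, *Cyp2c69* and *Cyp3a44* with 3 each, all in livers of males. *Cyp2b9*, a female-predominant gene, had 1 fed BCL6 peak 4420 bp upstream. All 8 genes inducible through CAR or PXR had a site, with 37 sites in all and 56.9 per Mb. None of them had a PPARδ peak in fasted livers, where 12 of the 57 members did. All 6 epoxygenases of arachidonic acid had a site, 19 in all, led by *Cyp2c29* with 5, *Cyp2c23* (listed under its former symbol *Cyp2c44*) with 4 and *Cyp2j5* with 4. The bile acid enzymes *Cyp2c70*, which makes muricholic acids, and *Cyp2a12*, a bile acid hydroxylase, had 6 and 5 sites. Of 4 genes expressed mainly outside the liver, 3 had a site, with all 3 sites of *Cyp2g1*, an olfactory P450, called for BCL6 in both states.

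Genes that serve or regulate P450 enzymes were counted in the same way. All 25 genes on a list of electron donors, heme enzymes and regulators, chosen with earlier results of these data known, had at least 1 site, where 48.7% of all genes did. In fed wild-type livers 21 had a BCL6 peak, 24 a PPARα peak and 18 a PPARδ peak, and in fasted livers 18, 25 and 7 did. The shares of all genes were 25.9%, 32% and 17% in fed livers and 18.9%, 43.5% and 7.7% in fasted livers. *Por* had 12 sites, *Rxra*, the partner receptor of CAR, PXR and the PPARs, had 20, and *Bcl6* itself had 17. *Nr1i2*, which encodes PXR, had 7, and *Nr1i3*, which encodes CAR, had 2, both within 1000 bp of a TSS.

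The fixed sequence elements were then searched on both strands in windows of 200 bp at site centers. The BCL6 element was found at 21 of 179 member sites (11.7%, interval 7.80% to 17.3%) and at 9.52% of sites at all genes. It was found at 9 of the 26 sites called for BCL6 without a PPAR (34.6%, interval 19.4% to 53.8%), and at 31.4% of such sites at all genes. At PPARα sites without BCL6, it was found at 3 of 48. TTCNNNGAA, the spacing bound by STAT factors, was found at 10.6% of member sites and 9.34% at all genes, and it overlaps the BCL6 element, since 10 of the 21 windows with the latter held both. DR1 matches were found at 28 member sites (15.6%, interval 11.1% to 21.7%) and 13.5% at all genes, at 10 of 42 PPARδ sites (23.8%) and at 1 of the 26 sites of BCL6 without a PPAR. The shares at members were near those at all genes for each of these elements.

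The remaining elements were rare. TATTGAT, bound by HNF6, was found at 14 member sites (7.82%) and 6.505% at all genes. Copies of AGGTCA in a direct repeat spaced by 4 bases (DR4) or an everted repeat spaced by 6 (ER6) are known elements of CAR and PXR. With at most 1 mismatch, each was found at 1 member site (0.559%), against 0.572% and 0.229% at all genes.

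In the promoters of members, DR1 matches were more frequent than in all promoters, and the BCL6 element was not. The 200 bases upstream of the TSS held one at 6 of the 23 member TSSs with a proximal site (26.1%), at 4 of the 37 other member TSSs (10.8%), at 4.42% of all TSSs with a proximal site and at 2.07% of all 27204 TSSs. The BCL6 element was found at 1 of the 23 (4.35%) and at 5.44% of all TSSs. The STAT spacing was found at 0 of the 23 and at 5.08% of all TSSs. The 6 genes with a DR1 match were *Cyp2c29*, *Cyp2d9*, *Cyp2d10*, *Cyp3a25*, *Cyp3a57* and *Cyp3a59*. They are not independent. *Cyp2d9* and *Cyp2d10* held the same 13 bases, AGGACAAAGGGCA, and were identical at 84.3% of 197 bases aligned on the match without gaps. *Cyp3a25*, *Cyp3a57* and *Cyp3a59* held AGCTCAAAGGTCA, starting 183, 181 and 184 bp upstream. Their sites were centered 98, 171 and 98 bp upstream. *Cyp3a25* and *Cyp3a59* were identical at 95.5% of 199 bases, whereas *Cyp3a57* matched *Cyp3a25* at 45.5% in the same alignment without gaps. The match started 154 bp upstream at *Cyp2c29*, whose site was centered 92 bp upstream, and 54 and 57 bp upstream at *Cyp2d9* and *Cyp2d10*, whose sites were centered 62 and 78 bp upstream.

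Finally, near-identical copies can hide binding, because the authors kept only reads with 1 place in the genome. For each member, the share of 75-base stretches within 10 kb of its TSSs that occur once in the genome was computed from the reference. It ran from 53.6% to 99.6% over the 48 members with a site, with a median of 91.0%, and from 54.8% to 99.7% over the 9 without, with a median of 95.1%. Below 90% lay 23 members. The lowest were *Cyp3a41b* at 53.6%, with 4 sites that all lay over 50 kb upstream, and its copy *Cyp3a41a* at 54.8%, with none, followed by *Cyp2b13* at 64.1%, *Cyp2a5* at 65.5% and *Cyp2a4* at 68.5%. *Cyp2c40*, with no site in wild-type livers, was at 76.0%. The remaining members without a site were mostly unique, with *Cyp2j11*, *Cyp2j12* and *Cyp2b23* at 98.99%, 99.7% and 98.95%. For *Cyp3a41a*, *Cyp3a41b*, *Cyp2b13*, *Cyp2a4* and *Cyp2a5*, counts of sites are therefore uncertain.

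**Figure D5:**
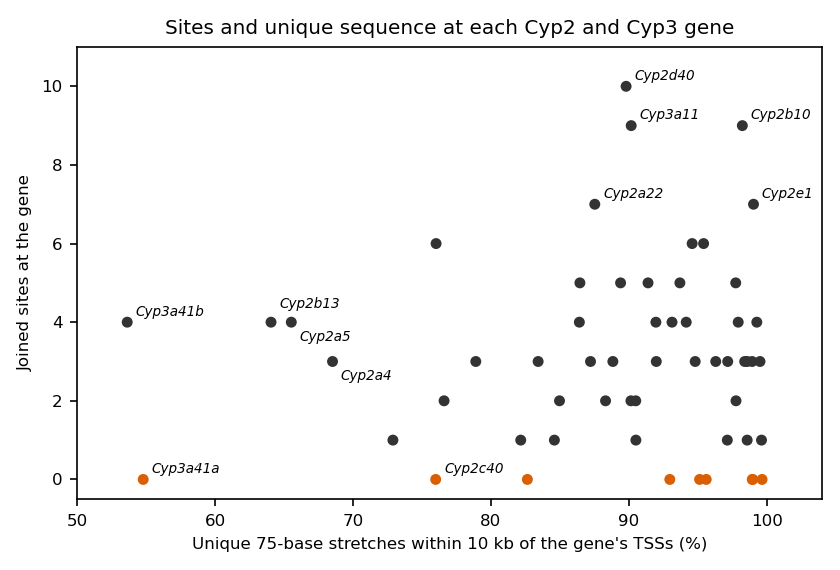
Number of sites at each of the 57 Cyp2 and Cyp3 genes (vertical axis) against the percent of 75-base stretches within 10 kb of its TSSs that occur once in the genome (horizontal axis, starting at 50%), with members without a site in orange. The copies *Cyp3a41a* and *Cyp3a41b* are lowest, at 54.8% and 53.6%, and most members without a site lie above 90%.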

How the data were processed

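Livers of fed and fasted mice were analysed from 7 deposited peak lists, each pooling 3 libraries. Reads had been mapped by the authors to mm10 (Bowtie), limited to those with a unique place and to 1 read per position, and peaks called against input (HOMER, with DESeq2 over replicates). The deposited values are peak start and end positions only, with 1 width per list, and carry no normalization, score or count. Depth is therefore unknown.

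Genes and TSSs came from RefSeq on GRCm38.p6, the assembly of mm10, using curated transcripts, or predicted ones where a gene had none (27204 TSSs). Peaks were assigned to the nearest protein-coding TSS within 100 kb and joined at 200 bp by single linkage. Elements, promoter sequences and 75-base stretches were read from the same assembly, and 1 sequence is not reported here. No test over samples was possible, and shares carry 95% Wilson intervals. Python 3.11.15, NumPy 2.4.6 and Matplotlib 3.10.9 were used, and the functions were tested on simulated data.

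Members, role lists and the partner list were chosen with earlier results of these data known. Genes were named by a rule: the 12 members with the most sites, members with a site within 1000 bp, the leading member of each subfamily, members with PPARδ peaks or with calls in fasted livers only, and examples from the lists. *Cyp2a5*, *Cyp2c66* and the floxed peaks of *Cyp2b10* were chosen after their values were seen, as were the reach of 250 bp, the limits of 1000 to 3000 bp and of 2 CpG. Alternatives covered the reach, the gene set, the TSS, the joining distance, the lists, the promoter and the window.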

Additional observations from a re-analysis of the deposited data

How the results depend on the processing

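Of 103 alternative values, 89 stayed within 1.5 times the reported count or within the interval of the reported share, and the other 14 are given here. With the nearest TSS taken among all RefSeq genes, the members had 77, 53 and 80 BCL6 peaks in fed, fasted and floxed livers and 73 and 86 PPARα peaks in fed and fasted livers, because non-coding genes and pseudogenes then took peaks. With a reach of 20 kb, fed BCL6 peaks numbered 80. With fasted lists only, 87.7% of BCL6 sites had PPARα and 51.8% of PPARα sites had BCL6, and with fed lists only 76.5% of PPARα sites had BCL6. In windows of 50 bp, the BCL6 element was at 3.35% of member sites, the STAT spacing at 1.68%, DR1 at 4.47%, DR4 at 0.0% and the HNF6 element at 1.68%, as shorter windows hold fewer matches. A stricter peak threshold and leaving out a replicate could not be run, since the lists hold no score and pool the replicates. No paired analysis was possible because the result comes from no test and the columns carry no replicate numbers. A lost call in fasted livers cannot be told apart from lower depth.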
